A study of Mus musculus with 10 samples.

Results

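The 10 glycolytic enzymes Gpi1, Pfkl, Aldoa, Tpi1, Gapdh, Pgk1, Pgam1, Eno1, Pkm and Ldha were followed in CD8+ dendritic cells (DCs, the splenic cDC1) of Ppef2+/+ and Ppef2-/- mice. They were chosen by gene symbol, with earlier results of these data known. All 10 of 10 were among the 10767 genes of the normalized mRNA sequencing table. Cells were sorted from spleens of untreated mice in 5 sorts, and each sort gave 1 Ppef2+/+ and 1 Ppef2-/- library, each from 3 pooled mice. The mice were sex- and age-matched and 8 to 13 weeks old. Ppef2-/- mice carry a knock-out first gene trap between exons 4 and 5 of Ppef2, a calcium-binding protein phosphatase, from JM8A3.N1 embryonic stem cells on a C57BL/6 background. The trap is in every cell of the animal, so it is not confined to the DCs. The comparison asks whether the absence of Ppef2 alters mRNA levels in DCs, here those of the glycolytic pathway.

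Glycolysis splits glucose into pyruvate in the cytosol. A first series of enzymes uses ATP to make triose phosphates, a second series returns ATP and NADH, and lactate dehydrogenase turns pyruvate into lactate and so regenerates NAD+. Resting DCs use the pathway together with mitochondrial respiration, and DCs that are activated through toll-like receptors are known to raise their glycolytic flux. Many genes of the pathway are textbook targets of HIF-1, which binds a core that can read ACGTG, and of MYC, which binds the E-box CACGTG.

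The targeted gene separated the genotypes in every sort. From sort 1 to sort 5, Ppef2 is listed at 243, 196, 170, 162 and 212 normalized counts in Ppef2+/+ cells, and at 1, 3.04, 28.6, 36.7 and 1 in Ppef2-/- cells, where 1 is the lowest value the table allows. Its log2 difference was -4.78 (limma with the sort as a block, adjusted p = 0.000121; without the block, adjusted p = 0.0182, and up to 0.0713 when 1 library was left out). Both the floor and the property of the table given next enter the Ppef2-/- values, so they are no measure of remaining Ppef2 mRNA. Total normalized counts per library were between 5295568 and 5482319. These are totals after normalization, and the sequencing depth, given with the reads below, was less even. All 13 cDC1 markers were in the table, with summed levels of 83620 to 86292 in Ppef2+/+ and 83066 to 85739 in Ppef2-/- libraries. Of the lists for other cells, 9 of 9 cDC2 markers were in the table (summed levels 1090 to 1530), 8 of 9 for pDCs (1415 to 1565 in Ppef2+/+ and 1273 to 1419 in Ppef2-/- libraries, Tcf4 called lower without the block and 0 of 8 with it), 11 of 13 for macrophages and monocytes (1823 to 2179), 3 of 9 for B cells (249.2 to 282), 1 of 7 for NK cells (109 to 158) and 1 of 9 for T cells (Cd5, 28.1 to 51.3, while Cd3d, Cd3e and Cd3g were absent). Genes known to respond to cell preparation were high in both genotypes (141636 to 165525 summed over 14 genes, of which Ier3 was called higher in Ppef2-/- cells without the block and 0 with it). The 11 pancreatic enzymes in the table summed to 681 in the Ppef2-/- library of sort 5, compared to between 11 and 344 elsewhere. The sum of 11 was in the Ppef2+/+ library of sort 5, with each gene at the lowest value allowed. All 11 had a mean log2 difference above 0 (0.43 to 2.34, median 0.96), and 0 were called. Sort 2 went the other way, with 283 in Ppef2+/+ and 62.2 in Ppef2-/- cells. In bulk RNA, fewer cells of a type and less RNA per cell cannot be told apart. The part of these values in the results below was not tested.

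A property of the table touches every value given here. For 10721 genes, all those never at that lowest value, adding the Ppef2+/+ to the Ppef2-/- value of a sort gave a constant, whose relative spread over the sorts was at most 6.28e-06. Ppef2, which is at that value in sorts 1 and 5, showed the same in sorts 2, 3 and 4, so its higher Ppef2-/- values mirror its lower Ppef2+/+ values. Therefore both libraries of a sort deviated in mirror image from their genotype means, and the 5 within-sort differences hold all the variation of a gene. The SDs of the deposited values leave out the spread between sorts. Also, a gene whose genotypes do not overlap is the same as a gene with 1 sign in all 5 sorts.

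Sequence decides how well a 50-base read can be assigned to 1 of these enzymes, and a pair of exon windows shows the extremes. All 731 of 731 coding windows of 50 bases that lie within an exon of Gapdh were also found in other genes, nearly all of them annotated pseudogenes, whereas 0 of 1266 such windows of Pfkl were. The 50 bases of Gapdh shown here (GRCm38 chr6:125163347-125163396, minus strand, coding exon) occur identically in 40 other annotated genes. The 50 bases of Pfkl (GRCm38 chr10:78000739-78000788, minus strand, coding exon) have their nearest copy in Pfkm, and the 5 bases in capitals differ from it.
Gapdh: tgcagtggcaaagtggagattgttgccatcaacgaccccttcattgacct
Pfkl: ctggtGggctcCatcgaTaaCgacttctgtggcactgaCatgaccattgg

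Over all 50-base windows of 1 spliced transcript per gene (GENCODE M21 models), 82.5% of Gapdh, 72.2% of Eno1, 68.0% of Pgk1 and 41.5% of Pgam1 were also found in other genes. The share was 34.4% for Pkm, 25.3% for Gpi1, 16.6% for Ldha, 13.5% for Aldoa, 7.51% for Tpi1 and 0.0543% for Pfkl. For Gapdh the sequence was spread over 222 other genes, 213 of them pseudogenes. For Eno1 most of it lay in a single gene that is itself in the table, the retrotransposed copy Eno1b, which held 1395 windows or 70.5% of Eno1. How reads that match several genes were counted is not given in the sources used here, so the levels of Gapdh, Eno1, Pgk1 and Pgam1 are the least certain.

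The order of the enzymes by level per length was the same in both genotypes apart from Eno1 and Tpi1. Per kilobase of exon, Ldha, which makes lactate, was highest with 1300 ± 57.3 normalized counts in Ppef2+/+ and 1329 ± 57.3 in Ppef2-/- cells (SD, n = 5 each). Gpi1 (1056 ± 40.2 and 1008 ± 40.2) and Pkm (1001 ± 26.3 and 980 ± 26.3) followed and their libraries overlapped. Then came Pgk1 (782 ± 42.6 and 814 ± 42.6), which overlapped with Aldoa (688 ± 34.2 and 695 ± 34.2), and Pgam1 (570 ± 19.4 and 580 ± 19.4). Eno1 (271 ± 29.9 and 296 ± 29.9) and Tpi1 (280 ± 7.38 and 280 ± 7.38) also overlapped. The lower end was held by Gapdh with 180 ± 9.65 and 190 ± 9.65, and by Pfkl with 109 ± 8.92 and 113 ± 8.92 normalized counts per kilobase. Thus 3 of the 9 neighbouring pairs in this order did not differ beyond their spread over libraries, and the highest level per length was 11.9 times the lowest. When the longest annotated transcript was taken as length, 4 of the 10 enzymes kept their rank, and Gapdh moved to the last place with a mean of 84.3 over all libraries, compared to 185 with the exon union.

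**Figure D1:**
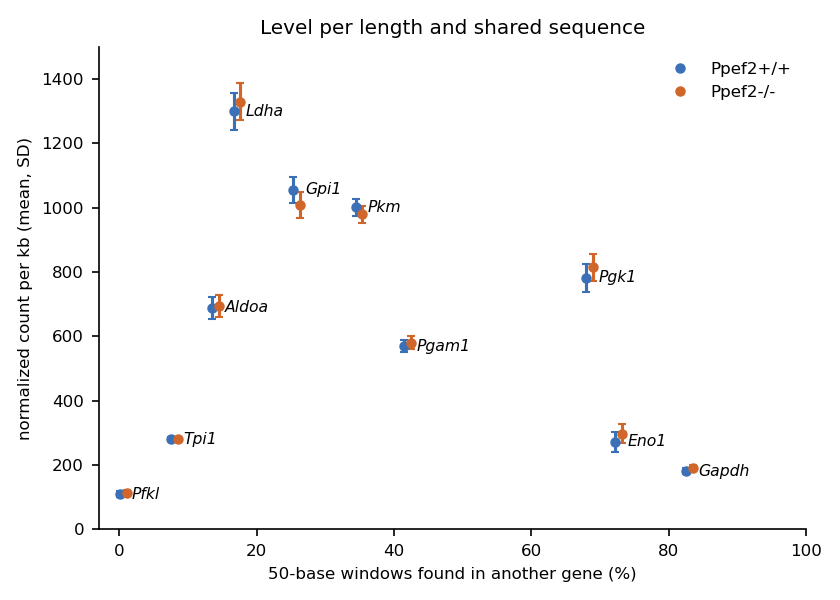
Mean normalized count per kilobase of exon (y axis, error bars SD over 5 libraries) against the percentage of 50-base windows of a gene that are also found in another gene (x axis), for the 10 enzymes in Ppef2+/+ (blue) and Ppef2-/- (orange, drawn 1 unit to the right) CD8+ DCs. Gapdh lies lowest but for Pfkl at 82.5% shared windows, whereas Pfkl and Tpi1 are low with few shared windows and Pgk1 is high with 68.0%.

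Gapdh, used in many laboratories as a reference gene for its high mRNA level, reached 23.2% of the level of Pgk1, the enzyme of the next step, per length of exon union, and less with the longest transcript as length. Whether reads of Gapdh were lost to its copies was not tested. The 10 enzymes together made up 0.250% ± 0.00337 of all normalized counts in Ppef2+/+ and 0.251% ± 0.00338 in Ppef2-/- libraries (SD, n = 5 each). Their summed level differed by 0.0034 on the log2 scale (SD over sorts 0.064; exact test over exchanges of genotype within sorts, two-sided p = 0.8125, where the smallest p possible is 0.0625).

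None of the 10 enzymes passed the test for a difference between Ppef2+/+ and Ppef2-/- DCs. With limma on log2(normalized count + 1) over all genes, 0 of 10 had an adjusted p under 0.05, in a table where 0.957% of all genes were called (103 of 10767). This background was 1 to 23 genes when any 1 library was left out, and 0 of 9581 genes when the sort means were put back. With the sort as a block, 0 of 10 were called again, against 0.00929% of all genes, which is Ppef2 alone. Also at an unadjusted p under 0.05 there were 0 of 10 enzymes in either fit, compared to 17.5% of all genes without and 4.29% with the block. In voom on recovered reads, available for 4 enzymes, 0 of 4 had such a p, beside 4.63% of the 9581 genes with reads. The mean difference was above 0 for 8 enzymes, counting Tpi1 at 6.83e-06 on the log2 scale. The median over the 10 was 0.03, beside 0.00 over all genes. Because the mirror image of the libraries narrows the intervals of the 10 enzymes in the fit without a block, the 95% intervals given below are those with the block.

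**Figure D2:**
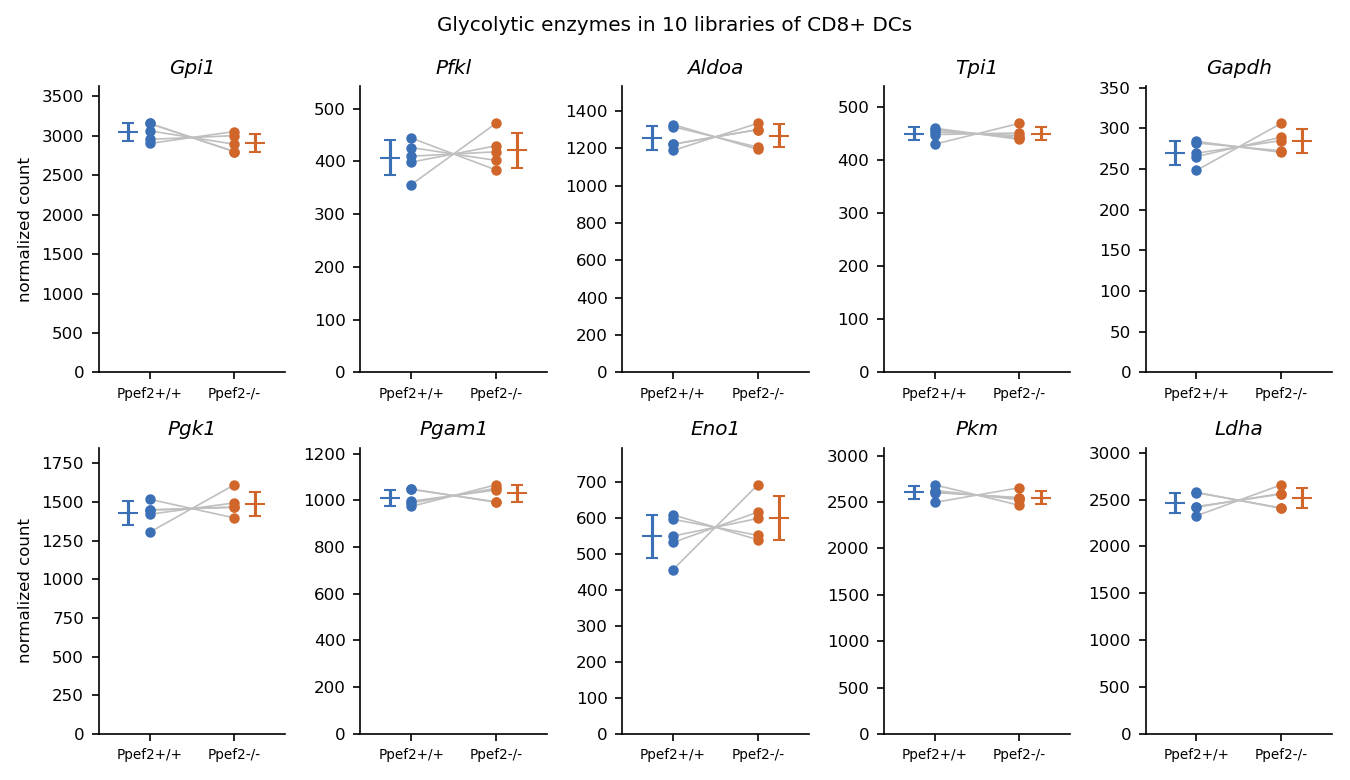
Normalized counts (y axes, starting at 0) of the 10 enzymes in the Ppef2+/+ (blue) and Ppef2-/- (orange) library of each sort, with grey lines joining the libraries of a sort and crosses with bars for mean and SD of 5 libraries. In every panel the genotypes overlap and the lines cross, as the sum of both libraries of a sort is constant.

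In the steps from glucose 6-phosphate to triose phosphates, no enzyme was called. Gpi1 (chr7:34201330-34230336, minus strand, 18 exons), which converts glucose 6-phosphate to fructose 6-phosphate, was measured at 2953, 3061, 3154, 2901 and 3156 normalized counts in Ppef2+/+ and at 3000, 2892, 2799, 3052 and 2797 in Ppef2-/- cells, given from sort 1 to sort 5 as for all genes that follow. It was lower in Ppef2-/- cells in 3 of 5 sorts, and its mean log2 difference of -0.07 had an interval of -0.17 to 0.04 (limma with block, adjusted p = 0.995). Without the block it had the smallest p of the 10 (limma, unadjusted p = 0.0723, adjusted p = 0.337), while the exact test within sorts gave p = 0.3125.

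Pfkl (chr10:77986947-78010083, minus strand, 22 exons) is the liver-type phosphofructokinase subunit of the committed step. Its levels were 426, 410, 356, 398 and 444 normalized counts in Ppef2+/+ and 402, 418, 472, 429 and 384 in Ppef2-/- libraries. The genotypes overlapped, and the sort with the largest difference, sort 3, was 32.5% higher in Ppef2-/- cells while sort 5 went the other way. On the log2 scale the mean difference was 0.05 (interval -0.12 to 0.22).

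Aldoa (chr7:126795234-126800751, minus strand, 10 exons) cleaves fructose 1,6-bisphosphate. It was measured at 1222, 1316, 1222, 1189 and 1328 normalized counts in Ppef2+/+ and 1301, 1207, 1301, 1334 and 1195 in Ppef2-/- libraries, which is 3 sorts higher and 2 lower. The mean log2 difference was 0.01 (interval -0.11 to 0.13). Tpi1 (chr6:124810586-124814296, minus strand, 7 exons), which interconverts the triose phosphates, was with Pkm the most even enzyme. It had 454, 449, 431, 458 and 461 normalized counts in Ppef2+/+ and 447, 452, 470, 443 and 440 in Ppef2-/- libraries. Its SD over the within-sort log2 differences was 0.0758, close to 0.0766 of Pkm. Of the 4221 genes with a mean of at least 250 normalized counts, 10.9% had a smaller SD than Tpi1. The interval of its mean log2 difference was -0.14 to 0.14.

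In the steps from glyceraldehyde 3-phosphate to lactate, no enzyme was called either. Gapdh (chr6:125161715-125166467, minus strand, 7 exons), which forms NADH, had 269, 284, 282, 248 and 265 normalized counts in Ppef2+/+ and 285, 270, 272, 306 and 289 in Ppef2-/- libraries. It was higher in Ppef2-/- cells in 3 of 5 sorts, with a mean log2 difference of 0.08 (interval -0.09 to 0.25), which was 0.02 without sort 4. The smallest of these libraries held 194 reads of Gapdh and the largest 626.

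Pgk1 (chrX:106187100-106203699, plus strand, 11 exons) makes the first ATP of the pathway. It had 1446, 1448, 1516, 1303 and 1420 normalized counts in Ppef2+/+ and 1466, 1465, 1396, 1610 and 1493 in Ppef2-/- libraries. Pgk1 was higher in Ppef2-/- cells in 4 of 5 sorts, most in sort 4 with 23.5%, and the mean log2 difference was 0.06 (interval -0.06 to 0.18). The phosphoglycerate mutase Pgam1 (chr19:41911923-41918660, plus strand, 4 exons) had 996, 1049, 989, 974 and 1047 normalized counts in Ppef2+/+ and 1044, 992, 1052, 1066 and 994 in Ppef2-/- libraries. Its mean log2 difference was 0.03 (interval -0.09 to 0.14), and 0.00026 without sort 4.

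Pkm (chr9:59656368-59679375, plus strand, 11 exons), the pyruvate kinase of most tissues, had 2602, 2685, 2608, 2624 and 2496 normalized counts in Ppef2+/+ and 2548, 2465, 2541, 2525 and 2654 in Ppef2-/- libraries. It was lower in Ppef2-/- cells in 4 of 5 sorts, by at most 0.12 on the log2 scale, and sort 5 was higher. The mean log2 difference was -0.03 (interval -0.13 to 0.07). The table holds a single entry for Pkm, so that its splice forms cannot be told apart. Ldha (chr7:46841475-46855627, plus strand, 8 exons) had 2419, 2578, 2327, 2425 and 2572 normalized counts in Ppef2+/+ and 2565, 2405, 2657, 2558 and 2412 in Ppef2-/- libraries, with a mean log2 difference of 0.03 (interval -0.08 to 0.14).

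**Figure D3:**
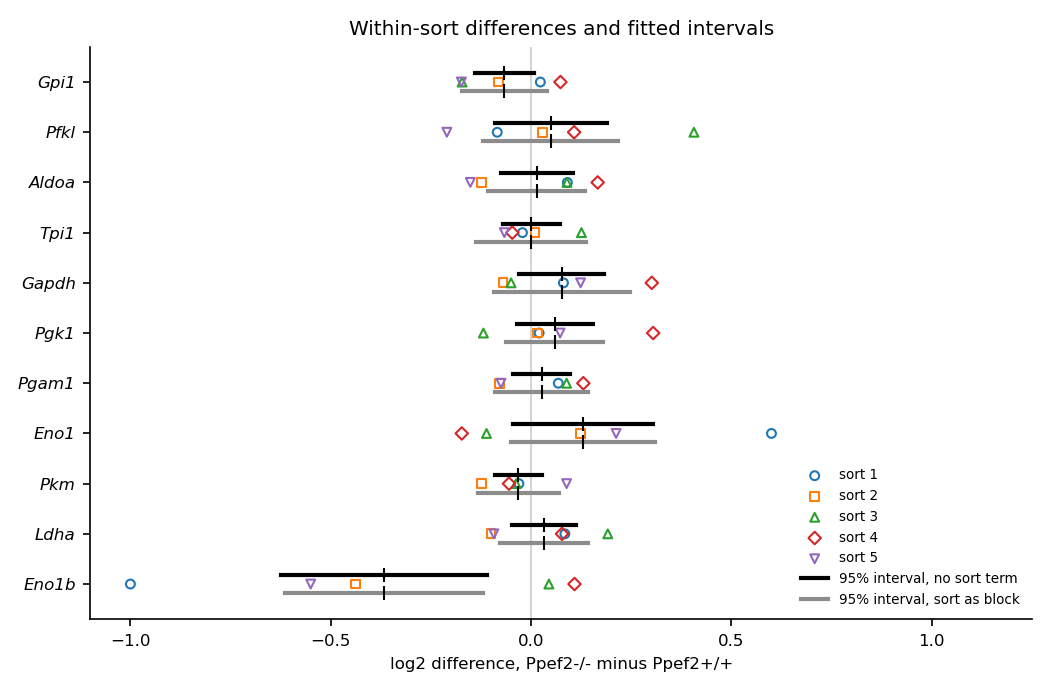
Log2 differences between the Ppef2-/- and the Ppef2+/+ library (x axis) in each of 5 sorts (open symbols) for the 10 enzymes and Eno1b, with the 95% intervals of the mean without a term for the sort (black) and with the sort as a block (grey). The intervals of all 10 enzymes include 0, and the widest spread over sorts is that of Eno1 and, in the opposite direction, Eno1b.

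Over the 10 enzymes, 27 of the 50 within-sort differences were higher in Ppef2-/- cells and 23 were lower. The sorts did not share a direction. In sorts 1 and 4, 7 of 10 enzymes were higher in Ppef2-/- cells (49.6 and 52.3% of all genes), in sort 3 there were 5 (50.2%) and in sorts 2 and 5 there were 4 (49.0 and 50.2%). No enzyme had 1 sign in all 5 sorts (0 of 10, beside 6.18% of all genes), so that the genotypes overlapped for each of them. Only 2 of the 50 differences exceeded 25%, Eno1 in sort 1 and Pfkl in sort 3. Thus 2 of 10 enzymes had such a difference in at least 1 sort, beside 58.0% of all genes and 21.4% of those with a mean of at least 250 normalized counts. With the block, the intervals of the 10 enzymes lay between -0.17 and 0.31, within the log2 difference of 1 that stands for a doubling.

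The enolase Eno1 (chr4:150236721-150248879, plus strand, 12 exons), which forms phosphoenolpyruvate, had the largest SD over sorts of the 10. It had 457, 551, 597, 610 and 533 normalized counts in Ppef2+/+ and 693, 600, 553, 541 and 618 in Ppef2-/- libraries. The Ppef2-/- library of sort 1 was 51.6% higher than its Ppef2+/+ partner, whereas sorts 3 and 4 were lower. The mean log2 difference was 0.13 (limma with block, interval -0.05 to 0.31, adjusted p = 0.995; without block, adjusted p = 0.438), and it was 0.01 without sort 1. The SD over sorts of 0.31 was larger than that of 96.5% of the genes with a mean of at least 250 normalized counts.

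Eno1b, the intron-poor copy of Eno1 on chromosome 18 (48045335 to 48048412), moved against it in every sort. It had 403, 348, 298, 291 and 359 normalized counts in Ppef2+/+ and 201, 257, 307, 314 and 245 in Ppef2-/- libraries. In these deposited values sort 1 held the highest Ppef2+/+ and the lowest Ppef2-/- level, while with the sort means put back the lowest Ppef2-/- level was in sort 5 (216 compared to 233 in sort 1). Over the 5 sorts its log2 differences of -1.0, -0.44, 0.04, 0.11 and -0.55 were opposite in sign to 0.60, 0.12, -0.11, -0.17 and 0.21 of Eno1 (Pearson r = -0.99 over 5 sorts, given as a description). The mean log2 difference of Eno1b was -0.37 (limma with block, interval -0.61 to -0.12, unadjusted p = 0.00576, adjusted p = 0.995; exact test within sorts, p = 0.25) and it was not called in either fit.

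Whole reads could be calculated back for Eno1, Eno1b, Gapdh, Pfkl and Tpi1, which also puts the sort means back. Depth differed between the libraries of a sort, so reads are not levels. Over all genes with recovered reads, sort 1 held 1508572 reads in Ppef2+/+ and 4408055 in Ppef2-/- cells, and sort 5 held 2064898 and 1507302. The Ppef2-/- library held more reads in sorts 1, 2 and 3 and fewer in sorts 4 and 5. Eno1 held 317, 381, 401, 627 and 615 reads in Ppef2+/+ and 1443, 962, 596, 483 and 509 in Ppef2-/- libraries. Eno1b held 318, 265, 182, 323 and 332 reads in Ppef2+/+ and 502, 457, 302, 304 and 158 in Ppef2-/- libraries. Reads of Eno1 were therefore 49.9, 59.0, 68.8, 66.0 and 64.9% of both genes in Ppef2+/+ and 74.2, 67.8, 66.4, 61.4 and 76.3% in Ppef2-/- libraries. The split differed between libraries by more than counting error, since the exact 95% interval was 46.0 to 53.9% in the Ppef2+/+ library of sort 1 and 72.2 to 76.1% in the Ppef2-/- library of that sort. Intervals of this kind cover counting error only.

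The sum of both genes spread less over the libraries than either gene. With the sort means put back, Eno1 spanned 434 to 697 normalized counts over the 10 libraries and Eno1b 216 to 435, a ratio of 1.61 and 2.01 between the highest and lowest library. Their sum spanned 832 to 943, a ratio of 1.13, with 889 ± 30.3 in Ppef2+/+ and 866 ± 39.3 in Ppef2-/- cells (SD, n = 5 each). Summed, the pair was lower in Ppef2-/- cells in 4 of 5 sorts by a mean of 0.04 on the log2 scale (exact test within sorts, two-sided p = 0.1875). The difference of Eno1 thus changed sign, from 0.13 to -0.04, when the reads of the copy were added, and neither value was called. The share of reads at Eno1 was 61.7 ± 7.505% in Ppef2+/+ and 69.2 ± 6.06% in Ppef2-/- libraries, and 3 of 5 sorts had the higher share in Ppef2-/- cells (p = 0.25 by the exact exchange of genotypes).

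**Figure D4:**
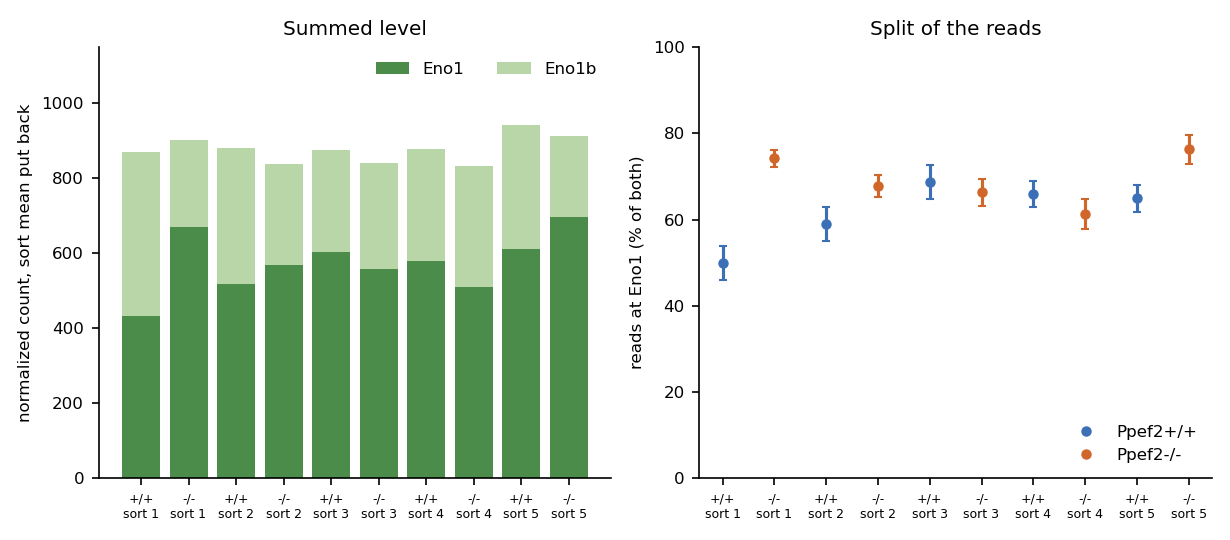
Left, normalized counts with the sort means put back (y axis, bars starting at 0) of Eno1 (dark) and Eno1b (light) stacked in each of 10 libraries, and right, reads of Eno1 as a percentage of the reads of both genes with exact 95% intervals (Ppef2+/+ blue, Ppef2-/- orange). The stacked height stays between 832 and 943, while the share of Eno1 runs from 49.9 to 76.3%.

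The recovered reads set the spread over sorts beside counting error. For Tpi1, with 273 to 970 reads per library, the SD of the within-sort log2 differences was 0.08 and the counting error of a single difference 0.10, and for Gapdh they were 0.15 and 0.13. For Pfkl with 240 to 888 reads they were 0.23 and 0.10, and for Eno1 0.32 and 0.09. Counting error does not cover the spread between pools of mice, so these values are set side by side only. Put back, the Gapdh levels were 270 ± 21.4 normalized counts in Ppef2+/+ and 285 ± 14.6 in Ppef2-/- cells, and the exact test within sorts again gave p = 0.3125.

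Some enzymes had like patterns over the 5 sorts. The within-sort log2 differences of Aldoa, Pgam1 and Ldha were above 0 in sorts 1, 3 and 4 and below 0 in sorts 2 and 5 (Pearson r = 0.99 for Aldoa and Pgam1, 0.89 for Pgam1 and Ldha, 0.86 for Aldoa and Ldha). Gapdh and Pgk1 (0.91) and Pfkl and Tpi1 (0.88) were also alike. These were the 5 of 45 pairs over 0.8, and the median of all pairs was 0.12. Of the 45 pairs 25 were above 0, and the lowest was Tpi1 and Pgk1 (-0.73). The share of pairs over 0.8 among all genes was not determined. Each value rests on 5 points that share their libraries and depth, and is given as a description only. The genes with a mean of at least 1000 normalized counts most like the mean of the 10 enzymes over the sorts were the RNA helicase Dhx9, the lysosomal Grn, H2-DMb1 of the MHC class II pathway, the catalase Cat and the small GTPase Arf3 (r between 0.986 and 0.995, out of 1038 genes). Between 1 and 3 of these 5 remained when any 1 sort was left out. Of the 1038 genes, 14 had an r over 0.95. The mean does not stand for each enzyme: r with it was 0.96 for Aldoa and 0.95 for Pgam1, but 0.0038 for Eno1, 0.036 for Tpi1 and -0.099 for Pkm. Each enzyme is itself part of this mean, which raises its r, so these values are not comparable with those of the genes outside the 10.

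No enzyme form outside the 10 was called. Of 24 listed genes for the first step and for other forms, 16 were in the table, and 0 were called in either direction in either fit, with a median log2 difference of -0.06. The hexokinases carry out the first step, and Hk3 had 1090 normalized counts in Ppef2+/+ and 1204 in Ppef2-/- cells. Hk2 had 568, 642, 561, 578 and 623 normalized counts in Ppef2+/+ and 686, 612, 693, 676 and 631 in Ppef2-/- libraries. The log2 difference of Hk2 was 0.15 (limma with block, unadjusted p = 0.0366, adjusted p = 0.995; exact test within sorts, p = 0.1875). That of Hk3 was 0.14 (limma with block, unadjusted p = 0.0355, adjusted p = 0.995; exact test, p = 0.25), and that of Hk1 was -0.16 (unadjusted p = 0.101, adjusted p = 0.995; exact test, p = 0.1875). Pfkp, a phosphofructokinase form, had 807 normalized counts in Ppef2+/+ and 894 in Ppef2-/- cells and a log2 difference of 0.15 (limma with block, adjusted p = 0.995). The remaining listed forms in the table were Pfkm, Aldoc, Pgam2, Pgam5, Eno1b, Eno2, Eno3, Bpgm, Minpp1, Galm, Pgm1 and Pgm2, with log2 differences from -0.37 (Eno1b) to 0.37 (Galm). The table also holds Aldoart1, a copy of Aldoa outside the list, with 4 to 18 reads per library and a log2 difference of -0.27.

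Transporters gave a like picture. Of 10 genes for glucose and lactate transport 8 were in the table and 0 were called, with a median log2 difference of 0.00. Slc2a1, the glucose transporter GLUT1, had 79.4, 92.0, 114, 98.6 and 92.0 normalized counts in Ppef2+/+ and 135, 123, 101, 116 and 123 in Ppef2-/- libraries. It was higher in Ppef2-/- cells in 4 of 5 sorts, and the genotypes overlapped in the deposited values only through sort 3, but with the sort means put back also through sort 4, where Ppef2+/+ cells had 114 and the Ppef2-/- cells of sorts 1 and 2 had 111 and 107 (log2 difference 0.33; limma with block, unadjusted p = 0.024, adjusted p = 0.995; without block, adjusted p = 0.124). The lactate transporter Slc16a1 (MCT1) was higher in 4 of 5 sorts with a log2 difference of 0.29 (limma with block, unadjusted p = 0.0482, adjusted p = 0.995; exact test within sorts, p = 0.25). With the sort means put back its log2 difference was 0.16 (exact test, p = 0.4375). Slc2a8 was higher in 4 of 5 sorts too, with 0.32 at 29.3 and 36.7 normalized counts. Slc2a3 (GLUT3) with 277 and 275 and Bsg, the chaperone of the lactate transporters, with 599 and 597 normalized counts had differences of -0.01 and -0.00. Slc2a6, Emb and the low Slc16a3 had log2 differences of -0.03, 0.01 and -0.49. At an unadjusted p under 0.05 in limma with the block, 2 of 16 other forms were higher in Ppef2-/- cells and 1 was lower. Of the 8 transporters 2 were higher and 0 lower. Such differences make up 4.29% of all genes in this fit. These companions did not pass the adjusted threshold.

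**Figure D5:**
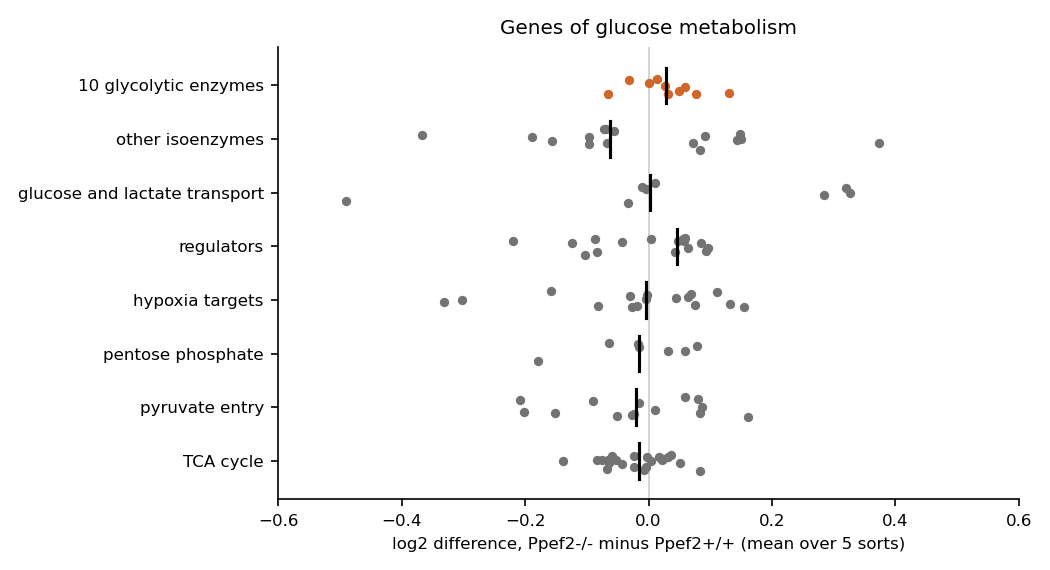
Log2 difference between Ppef2-/- and Ppef2+/+ CD8+ DCs (x axis, mean over 5 sorts) of each gene, 1 line per list, for the 10 glycolytic enzymes (orange) and 7 lists of other genes of glucose metabolism (grey), with black bars for the medians. The enzymes lie between -0.07 and 0.13, the transporters between -0.49 and 0.33 and the other isoenzymes between -0.37 and 0.37, and no list has a called gene.

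Regulators and neighbouring pathways were not called either. In 16 regulators of the table, the median log2 difference was 0.05, and the genes with most normalized counts were Pfkfb3, which makes the activator of phosphofructokinase (log2 difference 0.09), and Txnip, an inhibitor of glucose uptake (0.00). Hif1a itself had 716 normalized counts in Ppef2+/+ and 738 in Ppef2-/- cells. Of 16 HIF targets outside glycolysis those with most counts were Bnip3l (-0.03) and Kdm3a (-0.00), with a median of -0.00. The 7 genes of the pentose phosphate pathway had a median of -0.02, with Taldo1 (-0.02) and Tkt (-0.06) having most counts. The 14 genes of pyruvate entry had a median of -0.02 with Dld (0.08) and Pdhb (-0.05) first by counts, and the 22 genes of the TCA cycle had -0.02 with Cs (-0.07) and Mdh2 (-0.00) first. Over all 7 lists 0 genes were called with or without the block.

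The start regions of the 10 enzymes differ in their content of HIF-1 and E-box letters. Windows from 250 bases before to 50 after each RefSeq start were searched for ACGTG on both strands, where a CACGTG counts as 2 overlapping matches. Other forms of the HIF-1 core were not searched for. A match was found for 6 of 10 enzymes (Aldoa, Gapdh, Pgk1, Pgam1, Pkm and Ldha) and for 29.9% of the 8294 genes of the table with a window. Of all 32817 windows 19.6% held ACGTG and 7.15% CACGTG. No match was in the windows of Gpi1, Pfkl, Tpi1 and Eno1, which says only that these letters are not there. The regions with most matches before the start, Ldha with 5 and Pgk1 with 2, are printed here. They are the 250 bases before the start on the plus strand of GRCm38 from RefSeq, chr7:46845554-46845803 for Ldha and chrX:106186850-106187099 for Pgk1, free of annotated exons (that of Ldha lies inside the GENCODE gene span, before a RefSeq start), with the matches in capitals.
Ldha: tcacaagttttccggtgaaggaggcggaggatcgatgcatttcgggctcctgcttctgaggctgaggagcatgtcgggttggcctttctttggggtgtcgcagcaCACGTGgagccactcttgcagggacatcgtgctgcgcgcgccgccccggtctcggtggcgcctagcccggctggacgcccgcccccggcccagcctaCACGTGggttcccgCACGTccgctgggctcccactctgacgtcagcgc
Pgk1: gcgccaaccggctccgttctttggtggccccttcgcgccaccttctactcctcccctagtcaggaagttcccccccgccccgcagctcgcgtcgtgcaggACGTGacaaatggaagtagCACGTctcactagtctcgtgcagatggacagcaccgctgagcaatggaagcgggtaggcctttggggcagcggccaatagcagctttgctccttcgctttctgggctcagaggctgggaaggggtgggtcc
Neither gene was called between the genotypes, as given above.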

How the data were processed

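Messenger RNA of 10 libraries, 5 per genotype, was measured with 50 bp single-end reads. Genotype and sort were taken from the labels, which do not name separate mice. Reads were aligned to mm10 by the authors (HISAT in the paper, TopHat2 2.0.3 in the submitters' processing notes) and counted per RefSeq gene in Partek 6.6. The library kit keeps no strand. What was deposited is a signal of counts normalized with DESeq2, which the authors floored at 1, and genes with a mean under 10 in both genotypes were removed. A step that made the sort sums constant is not named in the sources used here. All columns were used, 0 were left out.

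Differences were tested on the whole table with limma 3.58.1 (lmFit, eBayes with trend) in R 4.3.3 on log2(value + 1), two-sided, at a threshold of 0.05 after Benjamini-Hochberg adjustment over the 10767 genes, without a term for the sort as in the one-way model of the study. Fold changes on this scale understate low genes. The replicate numbers pair the libraries: they are the sort numbers of the labels, and the deviations of both libraries of a sort from the genotype means correlated with -0.94 to -0.93 over genes, so the sort as a block was fitted beside it. Single values were compared by exact tests over the 32 exchanges within sorts, and n counts libraries, each from a pool of mice. P-values of these exact tests and of the fit with the block rest on the spread of the within-sort differences. Those of the fit without the block treat mirrored libraries as independent, so they do not measure the spread between pools. Whole reads were solved from the values with the sort sums for 9581 of 9581 genes with all values under 1000 and none at the floor. The other 6 enzymes, with values of 1000 or more, were not resolved. At the value of 1 read they correspond to about 658 to 6461 reads.

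Gene models are GENCODE M21 on GRCm38 and promoters are from RefSeq. Named genes were the 10 enzymes, Ppef2, the isoenzymes and transporters, the 2 highest genes and any called gene of each other list, and the 5 genes most like the mean of the enzymes. Aldoart1, Hif1a and the genes of the cell type lists were chosen for mention once their values were known. The members and lists were chosen with earlier results of these data known. Alternatives were other pseudocounts (10 and 0.1), a mean of at least 100, other scalings, the block, no trend, another transcript length and each library or sort left out. After the data were seen, the sum of Eno1 and Eno1b, values with sort means put back and limma's voom on reads were added.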

Additional observations from a re-analysis of the deposited data

Results flagged for a closer look

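None of the 10 enzymes had a library that stood far from the other 4 of its genotype by Dixon's criterion (critical value 0.71 for 5 libraries). Among 218 groups of 5 libraries examined for the enzymes, Ppef2 and the other genes of glucose metabolism, 10 held such a library, which came from 5 genes, and chance gives about 1 in 20 groups. Both genotypes of a gene appear together because the libraries of a sort are mirror images. In sort 5, Pfkfb4, a kinase and phosphatase of fructose 2,6-bisphosphate, had 46.5 normalized counts in Ppef2+/+ (63.1 to 66.9 in the other sorts) and 77.6 in Ppef2-/- cells (57.1 to 60.95), and Pdpr, a subunit of pyruvate dehydrogenase phosphatase, had 81.0 (97.5 to 101) and 109 (88.8 to 92.6). In sort 4, the kinase Mtor had 623 (557 to 574) and 549 (598 to 615), and Pdk1, which inhibits pyruvate dehydrogenase, had 248 (203 to 211) and 180 (217 to 225). In sort 3, the angiogenic factor Vegfa had 40.5 (27.2 to 30.9) and 16.5 (26.2 to 29.9).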

How the results depend on the processing

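The number of enzymes called was 0 in each of the 19 alternatives that fit all 10 of them, and 0 genes of the 7 lists were called in any fit. The median log2 difference of the enzymes stayed between 0.0081 and 0.0441. Over 22 alternatives, 191 of 202 values of single enzymes kept their direction and 11 turned, all of them uncalled: Tpi1 to -0.0014 with median-ratio scaling (also within sorts), -0.00077 with equal sums and -0.0027 in voom on reads, Eno1 to -0.0392 when summed with Eno1b, with or without the block, and the rest on leaving out 1 library, where Tpi1 ranged from -0.0159 to 0.0084 and Aldoa from -0.0053 to 0.0348. On leaving out a sort, the mean within-sort difference ranged from -0.0241 to 0.0553 for Aldoa, -0.0079 to 0.0650 for Ldha, -0.0397 to 0.114 for Pfkl, -0.0026 to 0.103 for Pgk1 and -0.0314 to 0.0167 for Tpi1, and, with no change of sign, from 0.0126 to 0.206 for Eno1, 0.00026 to 0.0528 for Pgam1, 0.0210 to 0.114 for Gapdh, -0.101 to -0.0396 for Gpi1 and -0.0616 to -0.0086 for Pkm, and between 0 and 1 enzymes had 1 sign in the remaining sorts (Pgk1 without sort 3, Pkm without sort 5). The median r between enzymes ranged from -0.0818 to 0.233. With the longest transcript as length, 4 of 10 ranks were kept. Of all genes, 103 were called as reported, 64 of those with a mean of at least 100, 193 without the trend and 1 to 23 without single libraries. With the replicate block 1 gene was called, also with Eno1 and Eno1b summed. The fits on recovered reads leave out Ppef2, which is at the lowest value in some libraries. With the block, 1 gene other than Ppef2 was called after sort means were put back, and 1 other than Ppef2 in voom. Putting sort means back without the block gave 0 in limma (267 at an unadjusted p under 0.05). The replicate block changed no call of an enzyme. Without single libraries Ppef2 ranged from -5.39 to -4.33 in log2, and its adjusted p in limma rose above 0.05 without the Ppef2+/+ library of sort 1 (0.0531), 2 (0.0599) or 3 (0.0575) or the Ppef2-/- library of sort 2 (0.0713). The causes were not tested. Precision is limited by 194 to 1443 reads per library for the 4 enzymes with recovered reads, and the sort means of the other 6 are unknown.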
